A study of Mus musculus with 11 samples.

Results

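The 10 genes Tie1, Tek, Kdr, Flt1, Pecam1, Cdh5, Cldn5, Emcn, Eng and Erg mark endothelial cells, the cells that line blood vessels, and were taken by symbol from the 27179 genes counted in each library. They were read in embryonic mouse brain at embryonic day 9.5, dissected as far back as the otic vesicle, the rudiment of the inner ear. The series sequenced polyadenylated RNA of 11 single embryos on the C57BL/6 background, from a study of mutations in Trp53 (p53) and Bcl2l11 (Bim). The 4 affected females and the 4 control males are labelled p53-/- Bim+/-, and the 3 control females p53+/+ Bim+/-. By label, every embryo so carried 1 mutant Bim allele. What affected means is not described in the labels, and no tissue-restricted allele is named in them. By label, affected females differ from control females in p53 genotype and in being affected, and from control males in sex and in being affected. Control males differ by label from control females in p53 genotype and in sex.

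At this stage vessels of a plexus around the neural tube begin to sprout into the neural tissue. Neural cells secrete vascular endothelial growth factor A, which endothelial cells read through the receptor Kdr and which the receptor Flt1 binds as a decoy. Angiopoietins act through the receptor Tek, with Tie1 as its partner, and Wnt7 ligands from neural cells induce barrier properties in the new vessels. The transcription factor Erg, of the ETS family, keeps endothelial genes on, among them junction genes such as Cdh5 and Cldn5.

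Total counts per library ranged from 8211942 to 11218682, and 14542 genes passed the expression filter, all 10 endothelial genes among them. Levels are TMM-normalised CPM, and differences are log2 fold changes of the group named first over the group named second, from edgeR's quasi-likelihood test over all 11 libraries with Benjamini-Hochberg adjustment and a threshold of 0.05. Whole-gene Trp53 levels overlapped, at 107 to 139 CPM over affected females, 112 to 132 over control males and 105 to 125 over control females, and do not show which exons were lost. Ccng1, a direct p53 target, lay at 21.8 to 24.5 CPM over affected females, 27.5 to 33.5 over control males and 74.6 to 93.7 over control females. Bcl2l11 lay at 38.1 to 47.2 CPM over affected females, 36.0 to 47.6 over control males and 71.0 to 82.1 over control females. Its log2 fold change against control females was -0.81 in affected females and -0.93 in control males (adjusted p = 0.000851 and 0.000217, edgeR). All are labelled Bim+/-, and whether the groups differed in Bim alleles was not tested. The labels give the replicates as separate embryos and name no litter, batch or date. In such bulk samples fewer endothelial cells and less RNA per endothelial cell cannot be told apart.

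The endothelial genes were measured in every library, from 32 counts for Cldn5 in affected female 3 to 1113 counts for Kdr. Per length of the counted gene, the mean over the 11 libraries was highest for Emcn, the sialoglycoprotein endomucin, with 20.4 ± 2.42 FPKM, which is CPM per kilobase (SD, n = 11). Next came Kdr with 17.9 ± 1.81 FPKM and Cdh5, the junction protein VE-cadherin, with 14.1 ± 1.67 FPKM. Pecam1, the adhesion molecule CD31, had 8.59 ± 0.901 FPKM. The ranges over libraries were apart between Cdh5 and Pecam1 and between Pecam1 and Tek, and the other neighbours in this order overlapped. The 6 remaining genes lay lower and close together, from Tek with 5.58 ± 0.44 FPKM to Erg with 2.97 ± 0.589 FPKM, with Eng, Tie1, Flt1 and Cldn5 between them in that order.

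The genes varied among embryos to a degree near that of other genes. Their coefficient of variation over the 11 libraries ranged from 7.9% for Tek to 20.6% for Cldn5, with a median of 11.9%, against a median of 13.9% over the 11724 tested genes whose log2 CPM averaged at least 2. Tie1 with 16.6% and Erg with 19.8% also lay above that background median. Summed over the 10 genes, the level was 342.4, 292.0, 279.5 and 310.5 CPM in affected females 1 to 4, 258.7, 330.4, 306.3 and 316.3 CPM in control males 1 to 4, and 316.1, 311.7 and 318.4 CPM in control females 1 to 3. The 3 groups overlapped. Kdr and Cdh5, with the highest CPM of the 10 genes, weigh most in this sum. Control male 1 was the lowest of all libraries and affected female 1 the highest.

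**Figure D1:**
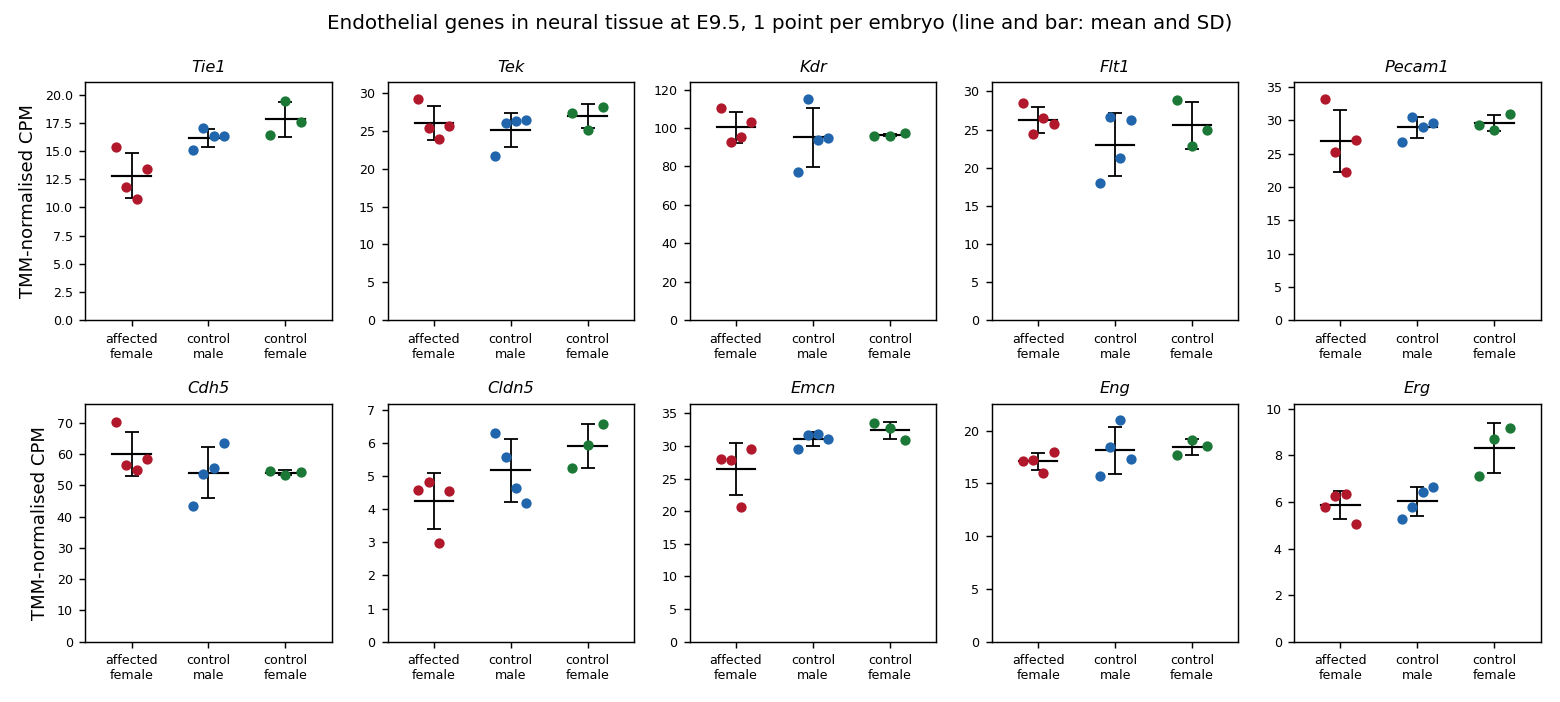
TMM-normalised CPM (vertical axes, from 0, a scale for each gene) of the 10 endothelial genes in affected females, control males and control females. Each point is an embryo, and the line and bar are the group's mean and SD. Tie1 of affected females lies between 10.7 and 15.3 CPM, below the 16.4 to 19.5 CPM of control females, and Erg lies between 5.03 and 6.33 CPM in affected females against 7.10 to 9.17 CPM in control females.

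In affected females against control females, 2 of the 10 genes fell, Tie1 and Erg, and none rose. Over all tested genes 28.0% were called, 13.0% as higher and 15.0% as lower, so a count of 2 in 10 is near the background. DESeq2 called 2 of the 10, against 29.3% of all tested genes, and limma voom with sample weights called 4, against 52.5%. The groups' ranges were apart for 5 of the 10 genes, 1 higher and 4 lower, against 40.2% of all tested genes. The median log2 fold change of the 10 genes was -0.125, and that of all tested genes was -0.00488.

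Tie1 encodes an endothelial receptor tyrosine kinase with no well-known ligand of its own, which modulates signalling of Tek; the gene lies at chr4:118471191-118489849 on the minus strand (GRCm38.p6). Its level was 15.3, 11.8, 10.7 and 13.5 CPM in affected females 1 to 4, 15.1, 17.0, 16.4 and 16.3 CPM in control males 1 to 4, and 16.4, 19.5 and 17.6 CPM in control females 1 to 3. Every affected female lay below every control female, and affected female 1 alone reached into the range of the control males. Tie1 fell by 0.48 on the log2 scale against control females (SE 0.133, adjusted p = 0.0182, edgeR), to 0.718 of their level. Against control males the log2 fold change was -0.34 (SE 0.124, adjusted p = 0.0631, edgeR), which did not pass. Over 20 alternative settings the value against control females stayed between -0.575 and -0.407. The call was lost without affected female 3 (adjusted p = 0.0608), without control female 2 (adjusted p = 0.0851) and without control female 3 (adjusted p = 0.0537). Over all genes, calls against control females went from 4073 to 1967, 1924 and 1672 on these omissions. The same omissions are among those that ended other calls against control females below. Without affected female 1, Tie1 was also called lower against control males (adjusted p = 0.0382).

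Erg lies at chr16:95359169-95586600 on the minus strand. Its level was 5.78, 6.26, 6.33 and 5.03 CPM in affected females 1 to 4, 5.26, 5.78, 6.40 and 6.63 CPM in control males 1 to 4, and 7.10, 8.68 and 9.17 CPM in control females 1 to 3. All 8 p53-/- embryos, of either sex, lay below all 3 p53+/+ embryos. Erg fell by 0.51 on the log2 scale in affected females against control females (SE 0.162, adjusted p = 0.0301, edgeR). In control males against control females the log2 fold change was of like size, -0.47 (SE 0.162), but did not pass (adjusted p = 0.716, edgeR), and in affected females against control males it was -0.04 (SE 0.154, adjusted p = 0.868, edgeR). These comparisons share libraries. Erg was counted with few reads: the exact Poisson 95% interval ran from 5.19 to 8.33 CPM in control male 4 and from 5.37 to 9.19 CPM in control female 1, which covers counting error only. Without affected female 1, 3 or 4, or without control female 2 or 3, the call against control females was lost, with adjusted p of 0.0565, 0.0532, 0.0769, 0.0993 and 0.125.

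The promoters of these 2 called genes are shown with matches to ETS motifs, the kind that Erg binds. Whether such motifs have a part in either fall was not tested. The sequences are RefSeq's on GRCm38.p6, taken from the 250 bases before an annotated start and without the bases that lie in an exon of the gene in GENCODE vM21 or, at the gene's outer end, in its RefSeq span. Capitals mark matches to the ETS hexamers AGGAAG and CGGAAG, searched on both strands; matches on the opposite strand appear as CTTCCT or CTTCCG. All are written 5′ to 3′ in the sense of the gene, which lies on the minus strand in each case. The Tie1 stretch is chr4:118490062-118490099, the stretch at the outermost Erg start is chr16:95586601-95586843, and that at an inner Erg start is chr16:95459349-95459598.
Tie1: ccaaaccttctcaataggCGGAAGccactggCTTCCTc
Erg outermost start: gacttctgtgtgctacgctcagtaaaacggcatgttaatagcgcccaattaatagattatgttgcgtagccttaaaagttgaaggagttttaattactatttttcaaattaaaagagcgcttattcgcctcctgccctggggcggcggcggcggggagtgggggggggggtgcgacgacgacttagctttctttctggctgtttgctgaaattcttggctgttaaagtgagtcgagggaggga
Erg inner start: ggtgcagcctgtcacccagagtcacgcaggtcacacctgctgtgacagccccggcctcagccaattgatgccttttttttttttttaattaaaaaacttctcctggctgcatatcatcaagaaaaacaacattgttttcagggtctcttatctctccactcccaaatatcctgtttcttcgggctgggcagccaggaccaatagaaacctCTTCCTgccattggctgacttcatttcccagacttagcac

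In the full 250 bases, the Tie1 promoter held 2 matches, CGGAAG at -232 and AGGAAG on the opposite strand at -219, counted from the RefSeq start, both just outside the first exon of GENCODE vM21, which begins at 118490061. Promoters were in the table for 8 of the 10 genes, with Pecam1 and Cdh5 not matched. Eng, Emcn and Flt1 held 2 matches each, of AGGAAG, the inner Erg start held 1, and the windows of Tek, Kdr, Cldn5 and the other 2 Erg starts held none. Of 32851 RefSeq promoters of the same length, 39.2% held either hexamer and 11.3% held at least 2 matches. A match is a string of letters, and no binding was measured here.

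Tek, the receptor for angiopoietins and the partner of Tie1, did not pass in any comparison. Its level was 29.3, 25.4, 23.9 and 25.6 CPM in affected females 1 to 4, 21.7, 26.0, 26.3 and 26.5 CPM in control males 1 to 4, and 27.4, 25.2 and 28.2 CPM in control females 1 to 3. The groups overlapped, with log2 fold changes of -0.05 (SE 0.109, adjusted p = 0.755, edgeR) for affected females against control females and 0.05 (SE 0.101, adjusted p = 0.738, edgeR) for affected females against control males.

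The counts of Tie1 over those of Tek within a library do not depend on library scaling. Their log2 ratio was -0.92, -1.09, -1.15 and -0.92 in affected females 1 to 4, -0.52, -0.61, -0.68 and -0.69 in control males 1 to 4, and -0.73, -0.37 and -0.68 in control females 1 to 3. Every affected female lay below every control embryo. The mean log2 ratio was lower by 0.43 in affected females than in control females (-1.02 ± 0.115 and -0.59 ± 0.195, SD, n = 4 and 3), a ratio 0.743 times as high, with p = 0.0286 by a two-sided exact permutation test. Against control males (-0.62 ± 0.0812, SD, n = 4) the difference was -0.40, also with p = 0.0286 by the exact permutation test. This is the smallest p that groups of 4 and 3, or of 4 and 4, allow, and after adjustment over the 6 tests of ratios it was 0.0857, which does not pass.

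Kdr, the main signalling receptor for vascular endothelial growth factor A, had 110.3, 92.8, 95.3 and 103 CPM in affected females 1 to 4, 76.9, 115, 94.0 and 94.8 CPM in control males 1 to 4, and 96.0, 95.9 and 97.2 CPM in control females 1 to 3. Flt1, the decoy receptor of the same ligand, had 28.5, 24.4, 26.5 and 25.7 CPM in affected females 1 to 4, 17.9, 26.6, 21.3 and 26.2 CPM in control males 1 to 4, and 28.9, 22.9 and 24.9 CPM in control females 1 to 3. Neither gene passed in any comparison, and the groups overlapped, with control male 1 lowest for both. In affected females against control females the log2 fold changes were 0.06 (SE 0.112, adjusted p = 0.715, edgeR) for Kdr and 0.04 (SE 0.137, adjusted p = 0.828, edgeR) for Flt1. The mean log2 ratio of Kdr to Flt1 counts was 1.92 ± 0.0659 in affected females (SD, n = 4), 2.04 ± 0.132 in control males (n = 4) and 1.91 ± 0.171 in control females (n = 3), and affected females differed from control females by 0.01 (exact permutation p = 0.943).

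The junction and surface genes had differences of either sign, and none of them passed. Cldn5, a claudin of the tight junctions of brain vessels, had 4.58, 4.82, 2.98 and 4.55 CPM in affected females 1 to 4, 6.29, 5.58, 4.63 and 4.18 CPM in control males 1 to 4, and 5.23, 5.93 and 6.57 CPM in control females 1 to 3. All affected females lay below all control females, with a log2 fold change of -0.49 (SE 0.209) that did not pass (adjusted p = 0.0869, edgeR). It rested on 32 to 71 counts per library. It was called by limma voom (adjusted p = 0.00828) and without control female 1 and control male 4 together (adjusted p = 0.047, edgeR), and by none of the other 18 alternatives.

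Emcn, which covers the luminal surface of veins and capillaries, had 28.0, 27.8, 20.6 and 29.5 CPM in affected females 1 to 4, 29.5, 31.7, 31.8 and 31.1 CPM in control males 1 to 4, and 33.5, 32.7 and 30.9 CPM in control females 1 to 3. Its ranges in affected and control females were apart, and the log2 fold changes were -0.29 (SE 0.115, adjusted p = 0.0691, edgeR) against control females and -0.23 (SE 0.107, adjusted p = 0.129, edgeR) against control males. Neither passed, limma voom alone of the 20 alternatives called both (adjusted p = 0.0127 and 0.0153), and affected female 3 was the lowest library by far.

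Cdh5, the cadherin that holds endothelial cells together, had 70.3, 56.3, 54.9 and 58.5 CPM in affected females 1 to 4, 43.5, 53.6, 55.6 and 63.6 CPM in control males 1 to 4, and 54.7, 53.2 and 54.4 CPM in control females 1 to 3. It lay above control females in all 4 affected females, by a narrow margin in affected female 3, and did not pass (log2 fold change 0.15, SE 0.118, adjusted p = 0.342, edgeR). The log2 fold changes of Cdh5 and Cldn5, both junction genes, so differed in sign against control females, and edgeR called neither.

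Pecam1 had 33.2, 25.2, 22.3 and 27.0 CPM in affected females 1 to 4, 26.8, 30.6, 29.0 and 29.6 CPM in control males 1 to 4, and 29.3, 28.6 and 30.9 CPM in control females 1 to 3. Eng, the transforming growth factor beta co-receptor endoglin, had 17.1, 17.2, 16.0 and 18.0 CPM in affected females 1 to 4, 15.7, 18.5, 21.0 and 17.3 CPM in control males 1 to 4, and 17.7, 19.2 and 18.5 CPM in control females 1 to 3. The groups overlapped for both genes, with log2 fold changes against control females of -0.14 (SE 0.121, adjusted p = 0.401, edgeR) for Pecam1 and -0.11 (SE 0.118, adjusted p = 0.491, edgeR) for Eng. Exons of Eng overlap those of Fpgs on the other strand, and since the sources used here do not state whether counting used strand, reads of that pair cannot be told apart; Fpgs did not pass in any comparison.

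In affected females against control males, none of the 10 genes was called by edgeR, against 20.2% of all tested genes (9.51% higher and 10.7% lower). No gene had ranges apart, against 19.5% of all tested genes. An unadjusted p under 0.05 was reached by 2 of the 10, Tie1 and Emcn. DESeq2 also called 0, against 22.9% of all tested genes, and limma voom with sample weights called 3, Tie1 and Emcn lower and Flt1 higher, against 44.0%. The median log2 fold change of the 10 genes was -0.0626, and that of all tested genes was -0.0179.

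In control males against control females, edgeR called none of the 10 genes, against 0.144% of all tested genes. Ranges were apart for Erg alone, against 5.54% of all tested genes, and Erg was the single gene with an unadjusted p under 0.05. DESeq2 called 0 of the 10, against 0.296% of all tested genes, and limma voom called 1, Erg, against 10.8%. The median log2 fold change of the 10 genes was -0.0809, and that of all tested genes was -0.000873.

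**Figure D2:**
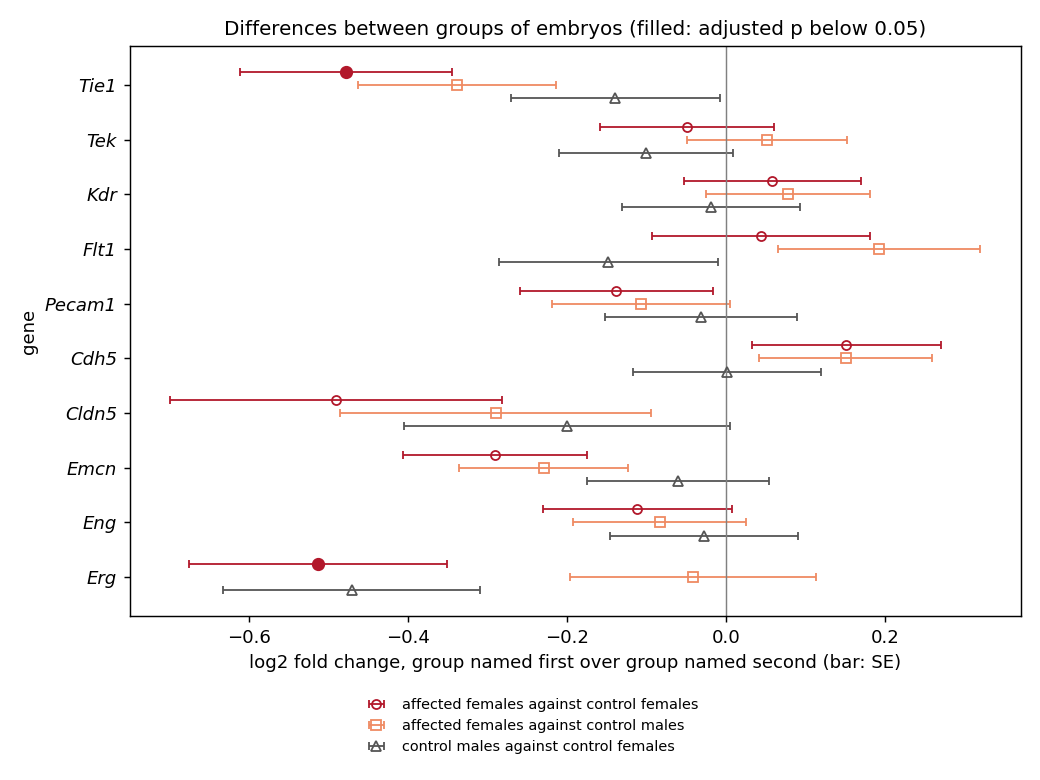
Log2 fold changes of the 10 endothelial genes (horizontal axis; genes run down the page) for affected females against control females (circles), affected females against control males (squares) and control males against control females (triangles). Bars are SE, and filled symbols are those with an adjusted p below 0.05, which are Tie1 at -0.48 and Erg at -0.51 in affected females against control females.

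The counts of called genes in the lists that follow stand beside 28.0% of all tested genes called in affected females against control females and 20.2% against control males. Of 14 vessel ligands, all of which passed the filter, 1 rose and 2 fell in affected females against control females, and 1 rose and 1 fell against control males, both below those shares. Vegfa, which encodes the ligand of Kdr and Flt1, had 66.2, 55.3, 49.0 and 47.6 CPM in affected females 1 to 4, 102, 112, 81.9 and 60.0 CPM in control males 1 to 4, and 129, 105 and 99.3 CPM in control females 1 to 3. All affected females lay below all control females, and only control male 4 reached into their range. Vegfa fell by 1.02 on the log2 scale against control females (SE 0.174, adjusted p = 0.00279, edgeR), called under all 20 alternatives. Against control males it fell by 0.71 (SE 0.164, adjusted p = 0.0134, edgeR), a call lost without affected female 3 (adjusted p = 0.0597) or control male 1 (adjusted p = 0.0529).

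Apln, which encodes the sprouting-vessel peptide apelin, rose. It had 26.9, 18.6, 23.3 and 19.3 CPM in affected females 1 to 4, 12.7, 11.2, 13.4 and 18.7 CPM in control males 1 to 4, and 16.3, 12.6 and 14.5 CPM in control females 1 to 3. Control male 4 alone overlapped affected females. The log2 fold changes were 0.61 against control females (SE 0.179, adjusted p = 0.0224, edgeR) and 0.65 against control males (SE 0.163, adjusted p = 0.0179, edgeR). The first call was lost without affected female 1 or 3 or control female 2 or 3, with adjusted p of 0.0604 to 0.097, and the second without affected female 3 or control male 1 or 2, with adjusted p of 0.0529 to 0.0658.

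Jag1, a Notch ligand, averaged 101 ± 12.8 CPM in affected females (SD, n = 4), 128 ± 17.9 CPM in control males (n = 4) and 148 ± 30.7 CPM in control females (n = 3). It fell against control females (log2 fold change -0.54, SE 0.139, adjusted p = 0.0128, edgeR) and did not pass against control males (adjusted p = 0.0767). The other ligands of the same receptors did not pass: for affected females against control females the log2 fold change was 0.18 for Vegfb (SE 0.116, adjusted p = 0.255), 0.26 for Vegfc (SE 0.148, adjusted p = 0.197), -0.20 for Angpt1, the ligand that activates Tek (SE 0.166, adjusted p = 0.365), and -0.87 for Angpt2, its context-dependent antagonist (SE 0.317, adjusted p = 0.0506, edgeR). Angpt2 was low, with 13 to 22 counts per library in affected females, 18 to 25 in control males and 20 to 39 in control females. Its log2 fold change was -0.439 without control female 1 and -1.09 without control female 2, and 5 of the 20 alternatives called it, with adjusted p of 0.0415 to 0.275 over all 20.

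Of 16 other vessel receptors, 1 rose and 3 fell in affected females against control females, and 1 rose and 1 fell against control males, both below the 28.0% and 20.2% of all tested genes. Nrp2, a co-receptor of vascular endothelial growth factors and a semaphorin receptor that neural crest and neural cells also carry, had 148.0, 129, 136 and 128 CPM in affected females 1 to 4, 77.4, 88.5, 91.0 and 104 CPM in control males 1 to 4, and 115, 78.7 and 71.0 CPM in control females 1 to 3. Affected females lay above all controls, with log2 fold changes of 0.62 against control females (SE 0.141, adjusted p = 0.00763, edgeR) and 0.58 against control males (SE 0.129, adjusted p = 0.0118, edgeR). The calls were lost without control female 3 (adjusted p = 0.052) and without affected female 3 (adjusted p = 0.0502). The falls were in Cxcr4, Notch1 and Calcrl, receptors for a chemokine, for Notch ligands and for adrenomedullin, with log2 fold changes of -0.52, -0.53 and -0.42 against control females (adjusted p = 0.0324, 0.0336 and 0.0438, edgeR). Each of these 3 calls was lost on leaving out any 1 of several libraries, among them affected females 3 and 4 and control females 2 and 3, with adjusted p of up to 0.163, 0.169 and 0.131. Cxcr4 lay at 50.1 to 62.4 CPM over affected females, 69.1 to 90.8 over control males and 49.7 to 94.1 over control females. It was also the gene that fell against control males (log2 fold change -0.54, adjusted p = 0.0275, edgeR), called under 14 of 20 alternatives.

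Among 22 transcription factors used by endothelial cells, 20 passed the filter, of which 3 rose and 2 fell against control females, and 4 rose and 2 fell against control males, beside 28.0% and 20.2% of all tested genes. Ets1, of the same ETS family as Erg but expressed also in neural crest and mesenchyme, had 163, 133, 157 and 156 CPM in affected females 1 to 4, 85.0, 79.4, 99.9 and 106 CPM in control males 1 to 4, and 89.1, 76.9 and 71.5 CPM in control females 1 to 3. No affected female overlapped any control. Ets1 rose by 0.94 on the log2 scale against control females (SE 0.116, adjusted p = 0.000582, edgeR) and by 0.71 against control males (SE 0.105, adjusted p = 0.00425, edgeR), under all 20 alternatives. Ets1 and Erg, 2 ETS genes, so had log2 fold changes of opposite sign in affected females against control females. Hey1, a Notch target, fell by 0.49 against control females (SE 0.126, adjusted p = 0.0129, edgeR) and by 0.38 against control males (SE 0.118, adjusted p = 0.0345, edgeR); without affected female 2 or 3 or control male 1 or 2 the second call was lost, with adjusted p of up to 0.122. Etv2, an early inducer of the endothelial lineage, did not pass the filter, with a mean of 0.941 CPM over affected females, 0.458 over control males and 0.288 over control females.

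Of 25 other endothelial surface and junction genes, 22 passed the filter, none rose and 2 fell in either comparison of affected females by edgeR and by DESeq2. With limma voom, 0 rose and 12 fell against control females, and 0 rose and 6 fell against control males, while voom called 52.5% and 44.0% of all tested genes; an unadjusted p under 0.05 was reached by 5 and 3 of the 22. The median log2 fold change of the 22 was -0.266 against control females and -0.155 against control males. Of the 22, 19 and 15 lay below 0, beside 50.4% and 52.1% of all tested genes. In control males against control females the median was -0.131. There 18 of the 22 lay below 0, beside 50.3% of all tested genes. The lean below control females was so seen in control males too, and both comparisons share the control female libraries. Cd34, a sialomucin of endothelium and blood progenitors, had 78.2, 63.3, 56.1 and 87.6 CPM in affected females 1 to 4, 97.4, 94.6, 94.1 and 93.7 CPM in control males 1 to 4, and 92.5, 101 and 101 CPM in control females 1 to 3. Affected females lay below all controls, with log2 fold changes of -0.46 against control females (SE 0.120, adjusted p = 0.0135, edgeR) and -0.41 against control males (SE 0.112, adjusted p = 0.0224, edgeR). The first call was lost without control female 2 (adjusted p = 0.0521), and the second without affected female 2 or 3 or control male 1, with adjusted p of up to 0.0785. Jam2, a junction adhesion molecule found beyond endothelium, fell by 0.99 against control females (SE 0.193, adjusted p = 0.00421, edgeR) and by 0.86 against control males (SE 0.181, adjusted p = 0.0107, edgeR); the second call was lost without affected female 3 (adjusted p = 0.0502). Leaving out control female 1 and control male 4 together raised the number that fell against control females to 8, with 38.8% of all tested genes called.

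Of 25 genes of the brain barrier and the Wnt signal that induces it, 23 passed the filter, of which 5 rose and 4 fell against control females, and 4 rose and 4 fell against control males, beside 28.0% and 20.2% of all tested genes. Wnt7a, the neural ligand for the barrier signal, had 1.49, 1.23, 0.838 and 2.32 CPM in affected females 1 to 4, 5.45, 6.20, 5.12 and 5.08 CPM in control males 1 to 4, and 2.86, 7.73 and 11.2 CPM in control females 1 to 3. It fell by 2.32 on the log2 scale against control females (SE 0.377, adjusted p = 0.00248, edgeR) and by 1.88 against control males (SE 0.365, adjusted p = 0.00956, edgeR), called under all 20 alternatives in both. These levels rest on 9 to 24 counts per library in affected females, and control female 1 lay near them with 23 counts. Wnt7b, the partner ligand, did not pass (log2 fold change 0.22, SE 0.164, adjusted p = 0.324, edgeR), nor did Axin2, a Wnt target (0.26, SE 0.101, adjusted p = 0.063).

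Mfsd2a, a lipid transporter of barrier endothelium that limits vesicle transport, had 12.6, 14.4, 9.96 and 15.1 CPM in affected females 1 to 4, 19.4, 25.2, 21.2 and 15.6 CPM in control males 1 to 4, and 16.3, 20.9 and 24.1 CPM in control females 1 to 3. Affected females lay below all controls, with log2 fold changes of -0.66 against control females (SE 0.181, adjusted p = 0.0172, edgeR) and -0.64 against control males (SE 0.168, adjusted p = 0.0202, edgeR). The calls were lost without affected female 3, the first also without control female 2 or 3 and the second without control male 1 or 2, with adjusted p of up to 0.0908 and 0.076. Slc2a1, the glucose transporter of barrier endothelium that other embryonic cells also use, averaged 375 ± 63.8 CPM in affected females (SD, n = 4), 242 ± 32.5 CPM in control males (n = 4) and 243 ± 66.6 CPM in control females (n = 3) and rose against both, by 0.63 (SE 0.169, adjusted p = 0.0158, edgeR) and 0.63 (SE 0.155, adjusted p = 0.0166, edgeR). Leaving out the same libraries ended these calls too, with adjusted p of up to 0.0933 and 0.0639. Affected and control females overlapped for Slc2a1, with control female 1 at 319.9 CPM above affected female 4 at 290.0 CPM. Tjp1, which encodes a junction scaffold protein of both epithelia and endothelia, rose by 0.64 against control females (adjusted p = 0.0073, edgeR). Abcb1a and Slco1c1, transporters of the mature barrier, did not pass the filter and had group means of at most 1.17 CPM.

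**Figure D3:**
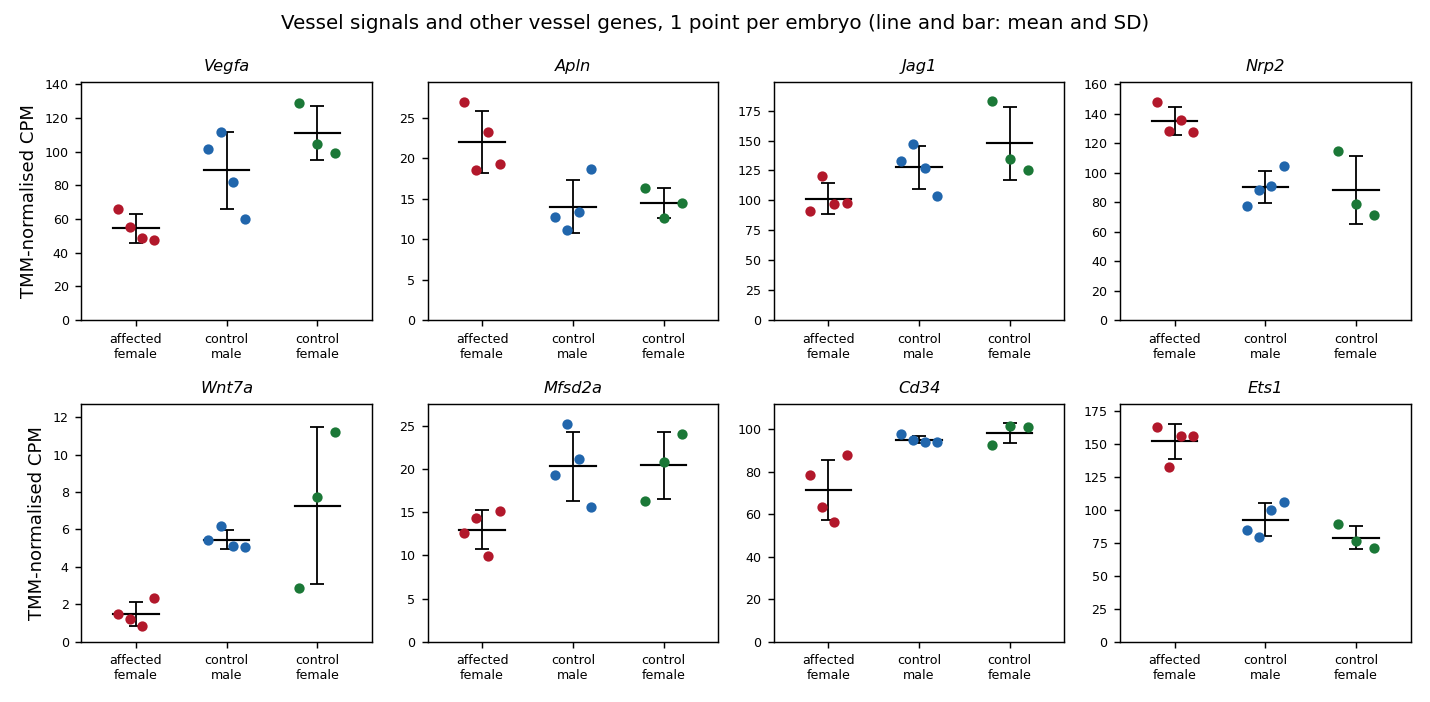
TMM-normalised CPM (vertical axes, from 0, a scale for each gene) of 8 vessel ligands, receptors and other vessel genes in affected females, control males and control females. Each point is an embryo, and the line and bar are the group's mean and SD. Vegfa, Wnt7a, Mfsd2a and Cd34 of affected females lie below those of control females, Ets1 and Nrp2 above them.

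Markers of other cells differed in how they stood beside these values. Of 12 mural cell genes, 8 passed the filter; Pdgfrb, the receptor of pericyte precursors, averaged 44.6 ± 5.52 CPM in affected females (SD, n = 4), 43.5 ± 6.08 CPM in control males (n = 4) and 41.5 ± 4.16 CPM in control females (n = 3), while the pericyte markers Cspg4, Rgs5, Kcnj8 and Higd1b had group means of at most 0.436 CPM. Against control females 1 of the 8 rose, Acta2 (log2 fold change 1.03, adjusted p = 0.0253, edgeR). There 1 fell, Vtn, vitronectin (-1.55, adjusted p = 0.00487, edgeR). Against control males Des rose (0.87, adjusted p = 0.0275, edgeR) and Vtn fell (-1.29, adjusted p = 0.0138, edgeR). In each of these comparisons 2 of the 8 had a log2 fold change below 0. The summed level of the 12 was 150.0 to 195.7 CPM over affected females, 152.9 to 187.2 over control males and 161.6 to 173.7 over control females. Of 12 macrophage genes 4 passed the filter. Fcer1g and Csf1r, a subunit of immunoglobulin receptors and the receptor of a macrophage growth factor, were below 1 CPM in every affected female and so passed through control libraries, and no test of them is given. Fcer1g had 2 to 5 counts per library in affected females, 8 to 16 in control males and 11 to 19 in control females, and Csf1r had 0 to 4 in affected females, 4 to 18 in control males and 3 to 26 in control females. The sum of the 12 was 4.004 to 5.336 CPM over affected females, 6.899 to 19.31 over control males and 5.353 to 18.24 over control females, with C1qa at 0 in all libraries. Cd68 had the highest mean of the 12 in each group, at 2.96, 7.31 and 5.95 CPM in that order. It was called lower against control males (adjusted p = 0.0344, edgeR) and not against control females (adjusted p = 0.0816, edgeR). Mrc1 averaged 0.976, 0.923 and 1.10 CPM and was not called. Of 17 head mesenchyme genes 16 passed. Of these, 2 rose and none fell against control females, beside 28.0% of all tested genes called. Against control males 1 rose and 1 fell, beside 20.2%. The sum of the 17 was 602.1 to 761.8 CPM over affected females, 655.8 to 907.8 over control males and 678.2 to 797.7 over control females.

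Of 13 surface ectoderm genes, 11 passed, 10 rose against control females and 8 against control males, beside 13.0% and 9.51% of all tested genes. On leaving out single libraries these counts became 4 to 10 and 1 to 9. Calls of either sign over all genes then ran from 1672 to 4957 and from 361 to 5140. The sum of the 13 ectoderm genes was 325.2 to 370.9 CPM over affected females, 186.2 to 266.3 over control males and 170.0 to 300.7 over control females. Surface ectoderm also expresses junction genes such as Tjp1 and Ocln. Of 15 neural progenitor genes, 4 rose and 2 fell against control females and 1 rose and 1 fell against control males, beside 28.0% and 20.2% of all tested genes, and the sum was 1494 to 1791 CPM over affected females, 1469 to 1839 over control males and 1491 to 1826 over control females. The part of these cells in the differences of the vessel genes was not tested.

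Blood transcripts varied more than endothelial ones. The summed level of 16 primitive erythroid genes was 2395, 2150, 1831 and 1175 CPM in affected females 1 to 4, 3803, 2302, 2568 and 2206 CPM in control males 1 to 4, and 578.6, 4519 and 4292 CPM in control females 1 to 3. Control female 1 held far less of them than the other control females, while its endothelial sum was within 311.7 to 318.4 CPM with theirs. Control male 1 held the most blood transcripts of the control males and the least endothelial ones. The coefficient of variation over the 11 libraries was 34.0% to 57.0% for the 15 erythroid genes that passed the filter, above the 20.6% of the most variable endothelial gene. None of the 15 was called in any comparison by edgeR or DESeq2. An unadjusted p under 0.05 was reached by 1 of them, in affected females against control females, where limma voom called 7 lower, beside 52.5% of all tested genes. Without control female 1, edgeR called 8 lower against control females and 3 against control males, with 31.1% and 24.9% of all tested genes called. Without control female 1 and control male 4 these were 10 and 4, with 38.8% and 40.9% called.

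**Figure D4:**
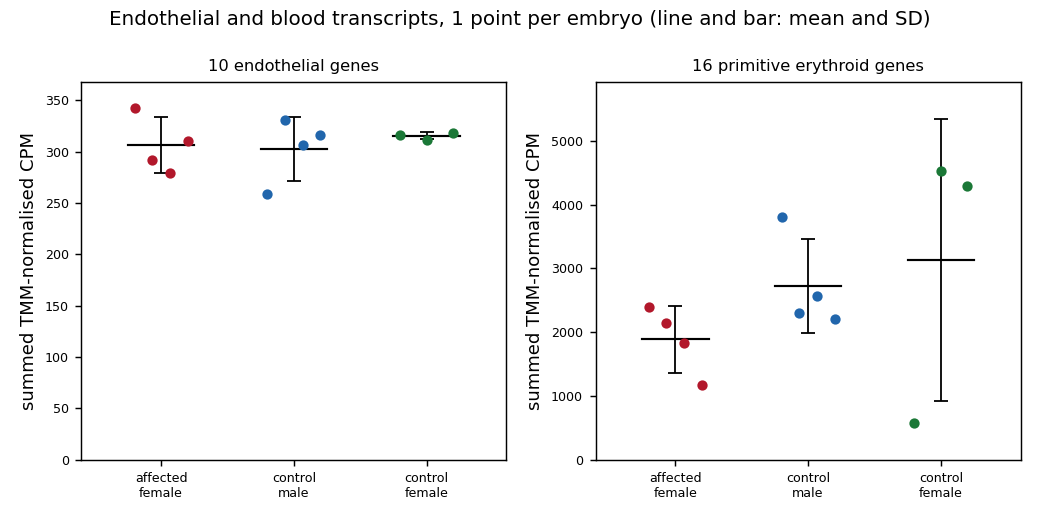
Summed TMM-normalised CPM (vertical axes, from 0) of the 10 endothelial genes (left) and of 16 primitive erythroid genes (right) in affected females, control males and control females. Each point is an embryo, and the line and bar are the group's mean and SD. The 3 control females lie within 311.7 to 318.4 CPM on the left and spread over 578.6 to 4519 CPM on the right.

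Within the set, the level of each gene over the 11 libraries followed the mean standardised log2 level of the other 9 to differing degrees. Pearson's r was 0.817 for Pecam1, 0.804 for Tek, 0.665 for Tie1, 0.59 for Emcn, 0.562 for Eng and 0.515 for Kdr. It was lower for Erg (0.362), Cdh5 (0.354), Flt1 (0.316) and Cldn5 (0.272). These are descriptions over libraries that share their group and scaling.

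Among 11714 other genes whose log2 CPM averaged at least 2, the 10 whose levels over the 11 libraries were most like the mean of the endothelial genes were Dnajb4, Adgrb1, Tox, Parm1, Cd81, Kbtbd11, Fat4, Adamts12, Lrrk2 and Arhgdib, with Pearson's r of 0.893 for the first and 0.823 for the last. In affected females against control females, Fat4 and Arhgdib of these 10 were called (adjusted p = 0.0445 and 0.0387, edgeR), beside 28.0% of all tested genes. The 10 were picked by their levels in these same libraries, so the calls are descriptions and no separate evidence. Fat4, an atypical cadherin, averaged 37.1 CPM over affected females, 42.8 over control males and 52.3 over control females. Arhgdib, a gene expressed mainly in blood cells, averaged 4.84 CPM over affected females, 5.70 over control males and 7.64 over control females.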

How the data were processed

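The authors deposited raw counts of reads per gene, whole numbers under Entrez identifiers, beside the counted length in bases, for 27179 genes in each of 11 libraries. Counting was by featureCounts on mm10, per the submitters' processing notes; the sources used here give no aligner, annotation release, version or strand setting. A series-wide table with identical counts was not used. Groups came from the sample titles. Symbols came from RefSeq (GRCm38.p6) for 25275 identifiers, and 1904 had none.

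Genes were kept by filterByExpr (14542), scaled by TMM and tested in 1 quasi-likelihood fit with group as the factor, in edgeR 4.0.16 (R 4.3.3), with Benjamini-Hochberg adjustment. Log2 CPM used a prior count of 2. SE is the size of the log2 fold change over the square root of F. FPKM is TMM-scaled CPM per kilobase of counted length. Ratios of counts (prior count 2) were compared by exact permutation in scipy 1.17.1. The fit was tested on simulated counts. Ranges are apart where the lowest CPM of 1 group lies above the highest of the other.

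The 10 genes and the gene lists were chosen with earlier results of these data known. The rule for naming took the 10 genes, for each list up to 3 genes with the smallest adjusted p per comparison, Vegfa, Vegfb, Vegfc, Angpt1, Angpt2, and the 10 genes most like the set; not all are printed, and genes outside it were named after their values were seen. Alternatives were RLE scaling, library totals, other filters, DESeq2 1.42.0, limma 3.58.1 voom with sample weights, a block for replicate number, the 2 groups alone, other prior counts, and omission of single libraries or of control female 1 with control male 4.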

Additional observations from a re-analysis of the deposited data

Results flagged for a closer look

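In 3 of 26 sets of 4 libraries, 1 library stood apart from the other 3 by more than Dixon's 95% criterion; chance gives about 1 in 20. Tek was at 21.7 CPM in control male 1, while the other control males lay between 26.0 and 26.5 CPM. Cldn5 was at 2.98 CPM in affected female 3, on 32 counts, while the other affected females lay between 4.55 and 4.82 CPM. The log2 ratio of Kdr to Flt1 counts was 1.85 in control male 4, while the other control males lay between 2.09 and 2.13.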

How the results depend on the processing

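Without an expression filter 1 endothelial gene was called in affected females against control females, and with limma voom and sample weights 4; leaving out single libraries gave 0 to 2. In affected females against control males library totals gave 1, voom 3, and leaving out single libraries 0 to 1; in control males against control females voom gave 1. The replicate numbers were not taken as pairs. Of 10 same-numbered pairs of libraries 3 correlated above 0.1, with r of at most 0.258. Libraries of different number reached a higher r, 0.341 for affected female 3 with control male 4. With the replicate block 1 endothelial gene, Tie1, was called in affected females against control females, and the log2 ratio of Kdr to Flt1 turned to -0.0132. Over all genes voom called 7639, 6397 and 1569 in the 3 comparisons in that order, DESeq2 called 43 in the last, and omission of control female 1 with control male 4 gave 6014 in the second; leaving out single libraries gave 1672 to 4957, 361 to 5140 and 18 to 35. Other values that changed sign were small and not called: in affected females against control males Tek stood at -0.00845 with library totals and Erg at 0.0122 without control female 1 and control male 4. In control males against control females Kdr stood at 0.000516 with library totals, Eng at 0.0676 with voom, and Cdh5 at -0.00404 with RLE scaling, -0.00408 with DESeq2, -0.0388 with the replicate block and -0.0786 without control female 1 and control male 4, where the Kdr to Flt1 log2 ratio of affected against control females was -0.0844. Leaving out single libraries, the log2 fold change ran over 0 for Flt1 in affected females against control females (-0.0282 to 0.139); in affected females against control males for Tek (-0.014 to 0.0912), Kdr (-0.013 to 0.179) and Erg (-0.103 to 0.0245); and in control males against control females for Kdr (-0.125 to 0.0704), Pecam1 (-0.061 to 0.00487), Cdh5 (-0.0876 to 0.0925) and Eng (-0.115 to 0.0357). So did the log2 ratio of Kdr to Flt1 in affected females against control females (-0.0844 to 0.0828) and of Tie1 to Tek in control males against control females (-0.1 to 0.0799). The cause was not tested. Counting depth limits the precision of genes with few counts, among them Fcer1g, Csf1r, Wnt7a, Angpt2, Cldn5 and Erg.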
